A study of Mus musculus with 6 samples.

Results

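Semaphorins, plexins and neuropilins are the ligands and receptors of a guidance system named for its part in steering axons. The set described here comprises the genes of an mRNA table whose symbols are those of a vertebrate semaphorin of classes 3 to 7, of a plexin, or Nrp1 or Nrp2. This gave 31 of 22298 genes: 20 semaphorins, 9 plexins and 2 neuropilins. The symbols fixed the membership, but the family was chosen for description from its count differences between the 2 groups below, so those differences are given as a description and are not independent evidence about the family. Of the 31 members, 28 passed the filter on low counts and were tested; Plxnb3, Plxnc1 and Sema5b were not.

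Semaphorins are secreted, membrane-spanning or lipid-anchored proteins that share a sema domain, and plexins are the single-pass receptors that bind it. Class 3 semaphorins are secreted and mostly act through a complex of a neuropilin, which binds them, and a class A plexin, which signals. Plexins signal through a cytoplasmic GTPase-activating domain and so alter the cytoskeleton and adhesion. Outside the nervous system the family is known for its part in vessel growth, immunity and epithelial shape.

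RNA sequencing of total RNA gave 6 libraries, all from GC-1spg, an immortalised mouse line that serves as a model of type B spermatogonia. One group of 3 (si-NC) received a control siRNA and the other group of 3 (si-METTL3) an siRNA against Mettl3, whose protein is the catalytic part of the complex that places N6-methyladenosine (m6A) on messenger RNA. All 6 were of 1 cell line, grown in DMEM with 10% FBS, transfected at 60% density and collected 48 h later. The labels give 1 sequence for both siRNAs, which leaves the control sequence unknown, and call the transfected controls untreated. No library of untransfected cells and no measurement of m6A was used here. The labels do not say whether the 3 libraries of a group came from separate cultures, so p-values measure the spread between these libraries, which may be technical.

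The mRNA table summed to 22146057 to 37698956 counts per library. Mettl3 had 606, 578 and 683 counts in si-NC against 142, 134 and 136 in si-METTL3, so every si-METTL3 library lay below every si-NC library. Of the 9 spermatogonial markers looked up, Sohlh1 and Sall4 had 0 counts in every library, and Dazl had 1 count in all. Of the 4 tested, edgeR called Gfra1 higher (log2 fold change 0.63, adjusted p = 0.0389) and not Kit (1.12, adjusted p = 0.121, unadjusted 0.0399), Zbtb16 or Uchl1, which had 865 to 1516 counts per library. In 8 lung epithelial genes, none of them family members, the summed level was 3.33, 1.92 and 53.5 CPM in si-NC 1, 2 and 3 against 79.8, 80.2 and 54.5 CPM in si-METTL3. Blood markers were likewise lowest in si-NC 1 and 2, at 0.456, 0.796 and 12.1 CPM against 18.8, 15.9 and 12.4 CPM. The summed macrophage markers were at 4.85, 5.04 and 17.8 CPM against 24.8, 26.2 and 19.1 CPM. These differences came mostly from Lyz2, at 0.342, 0.265 and 12.26 CPM in si-NC against 12.25 to 18.54 CPM in si-METTL3. Cd68, of the same list, stayed at 4.34 to 5.70 CPM over all libraries. From these 3 lists edgeR tested 7 of 8 lung, 4 of 5 blood and 3 of 8 macrophage genes and called 0. At an unadjusted edgeR p under 0.05 there were 3 lung, 0 blood and 1 macrophage gene, and DESeq2 called 0, 0 and 1. DESeq2 gave some of these genes no adjusted p, among them Sftpc, Sftpa1, Scgb1a1, Scgb3a2 and Lyz2, so it could not call them. The 8 Sertoli and other somatic testis genes added up to 294, 263 and 297 CPM against 411, 448 and 433 CPM, mostly from Wt1 and Clu. EdgeR called 2 higher, Wt1 and Clu, and 1 lower, Gata4. Amh and Star were not called, but like Gata4 they were lower in every si-METTL3 library than in every si-NC library. Sox9 was higher in every si-METTL3 library and not called, and Cyp17a1 and Insl3 had 0 counts. CPM, the usual scaling of counts to a fixed library total, was taken over the effective library size.

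Measured per length, as FPKM, a count scaled to transcript length and library total, the receptors stood at the top of the family. In si-NC the highest was Plxnb2 at 158.57 ± 15.1 FPKM (SD, n = 3), then Plxna1 at 48.3 ± 2.02 FPKM and Nrp2 at 20.9 ± 0.838 FPKM. The highest ligands were the secreted Sema3f at 17.6 ± 1.30 FPKM and Sema3c at 13.9 ± 4.40 FPKM, whose ranges overlapped. Sema4b followed at 9.83 ± 0.525 FPKM, and Plxnd1 at 7.25 ± 0.712 FPKM and Nrp1 at 7.13 ± 1.23 FPKM overlapped each other. Over all libraries 23 members averaged 1 FPKM or more and 8 less.

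**Figure D1:**
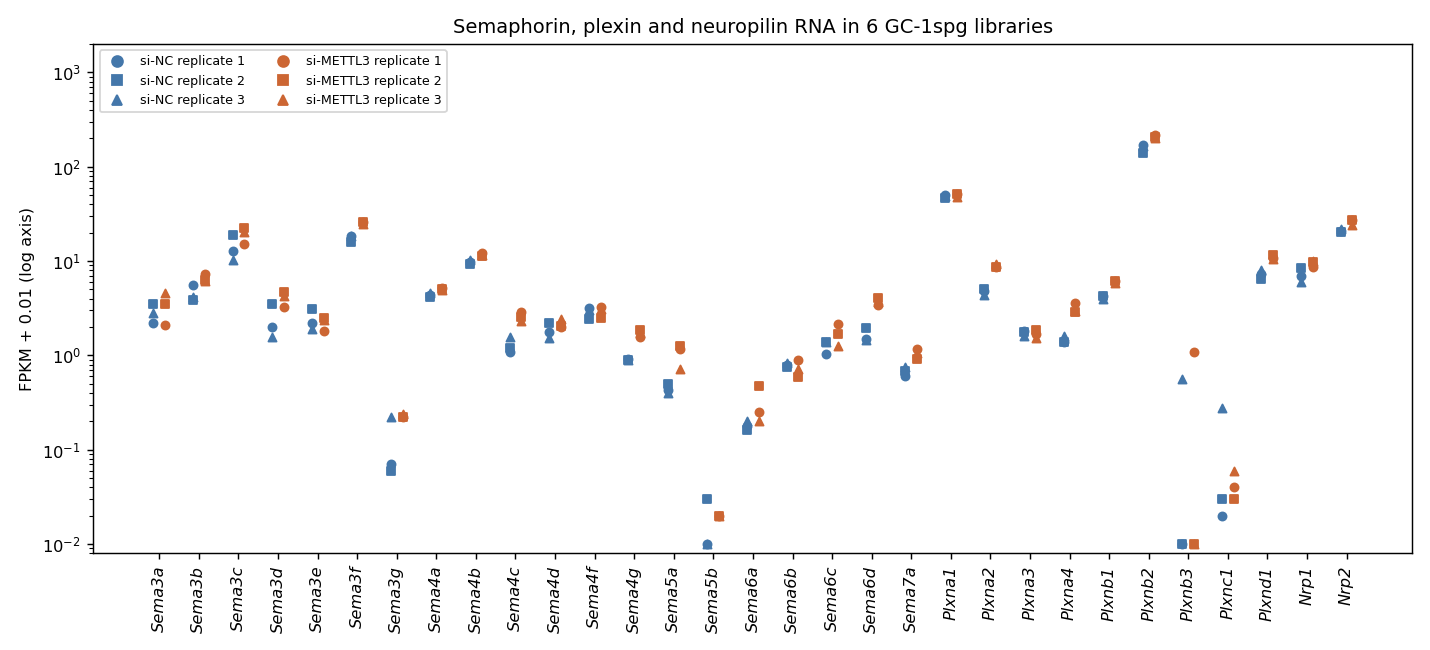
Deposited FPKM plus 0.01 of each of the 31 members on a log axis, one point per library, si-NC in blue and si-METTL3 in orange, with symbol shape for the replicate number; a point at the bottom is a value of 0. Plxnb2 stands above every other member in all 6 libraries.

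The family took 0.228%, 0.214% and 0.226% of all mRNA counts in si-NC 1, 2 and 3 against 0.297%, 0.293% and 0.283% in si-METTL3, so the groups did not overlap. In bulk libraries, less RNA per cell and fewer cells with the RNA cannot be told apart. Plxnb2 alone gave 48.2% to 52.4% of the family's counts. The share of Plxna1 within the family was 20.3% to 21.2% in si-NC against 16.2% to 16.8% in si-METTL3, while its own level in CPM overlapped between the groups.

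Of the 28 tested members, edgeR called 14 higher in si-METTL3 and 0 lower at a Benjamini-Hochberg adjusted p under 0.05 over all genes. Over the 13082 tested genes, 8.67% were called higher and 10.2% lower. At an unadjusted p under 0.05, 17 members were higher and 0 lower. The share of all genes at an unadjusted p was not counted, here or elsewhere. DESeq2 gave a p-value to 30 members and called 13 higher and 0 lower, against 1211 higher and 1438 lower of 17658 genes. The CPM of all si-METTL3 libraries exceeded that of all si-NC libraries in 17 members and the reverse held in 0, against 20.2% and 21.3% of all genes tested. The median log2 fold change was 0.53 over the members and 0.03 over all genes, and 24 members had a positive value, against 53.05% of all genes. By role, 8 of 19 tested semaphorins were called, with a median of 0.60, and 6 of 9 tested receptors, with a median of 0.40. In each of the 14 called members the groups did not overlap. Of these calls, 7 held whichever library was left out, and those of Sema3b, Sema3f, Sema6c, Sema7a, Plxnb1, Plxnb2 and Nrp2 did not. The share of all called genes that held in the same way was not counted.

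**Figure D2:**
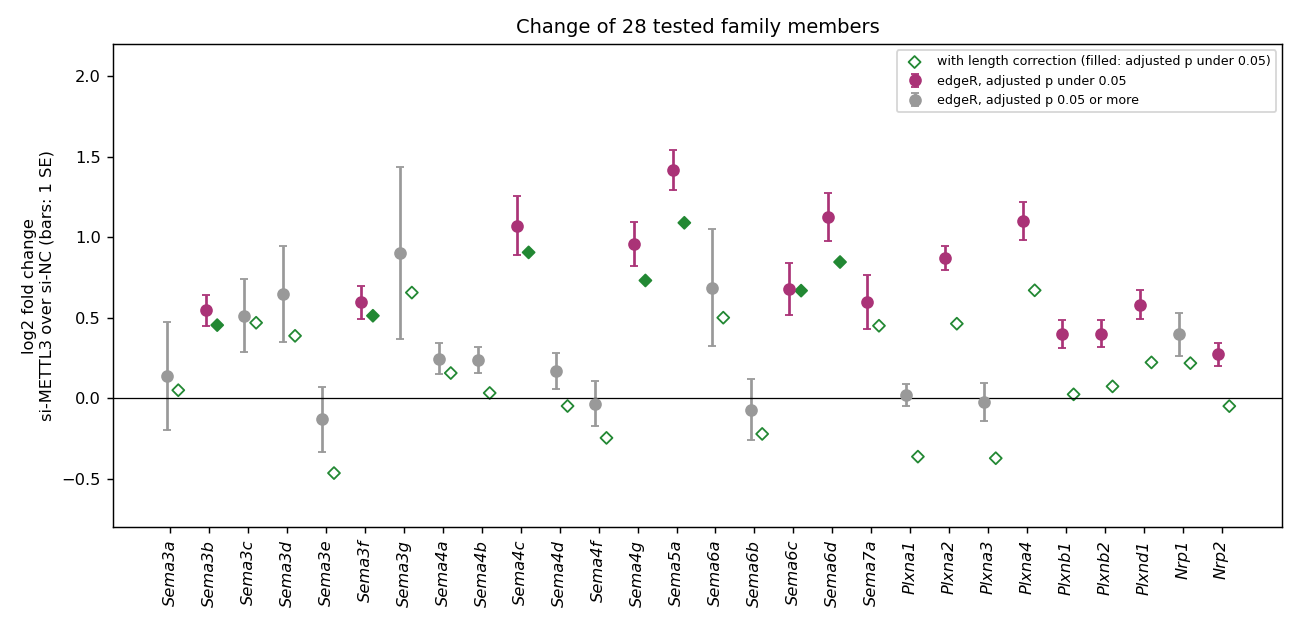
Log2 fold change, si-METTL3 over si-NC, of each of the 28 tested members with 1 standard error (edgeR, n = 3 per group), purple where called and grey where not; diamonds give the value with the length correction described next, filled where called. The called values run from 0.27 for Nrp2 to 1.42 for Sema5a, and no member was called lower.

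The libraries also differed in how counts depended on transcript length, and this moved with the groups. Length here is that implied by the ratio of counts to FPKM. Per doubling of length, the log2 count relative to the mean of all libraries changed by -0.11, 0.03 and -0.14 in si-NC 1, 2 and 3 against 0.04, 0.08 and 0.11 in si-METTL3, over 13032 genes. The median log2 fold change was -0.18 in the shortest of 10 equal bins of genes and 0.27 in the longest, where 16.1% of genes were called higher. Of the 28 tested members, 26 were longer than the median gene of 3034.63 bases and 11 were in the longest bin.

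With a correction for length, edgeR called 7 members higher and 0 lower, against 4.86% and 10.9% of all genes; at an unadjusted p under 0.05 these were 10 and 3. All 7 were semaphorins: Sema3b, Sema3f, Sema4c, Sema4g, Sema5a, Sema6c and Sema6d. No receptor was called (2 higher and 2 lower at an unadjusted p under 0.05), and the receptors' median log2 fold change went from 0.40 to 0.07. A correction for length and GC content, chosen after the data were seen, took length from the longest reference transcript and not from the implied value. Length measure and GC term thus changed together, and their separate parts were not tested. This correction kept 10 of the 14 calls, with Plxna2 and Plxna4 among them and Plxnb1, Plxnb2, Plxnd1 and Nrp2 lost. That fit called 11 members higher, Nrp1 among them (0.25, edgeR adjusted p = 0.0333), and 2 lower, Plxna1 (-0.37, adjusted p = 0.0325) and Sema3e (-0.51, adjusted p = 0.00657), against 10.0% and 17.5% of all genes. The members' median was 0.31 with the length correction, when that of all genes was -0.05.

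**Figure D3:**
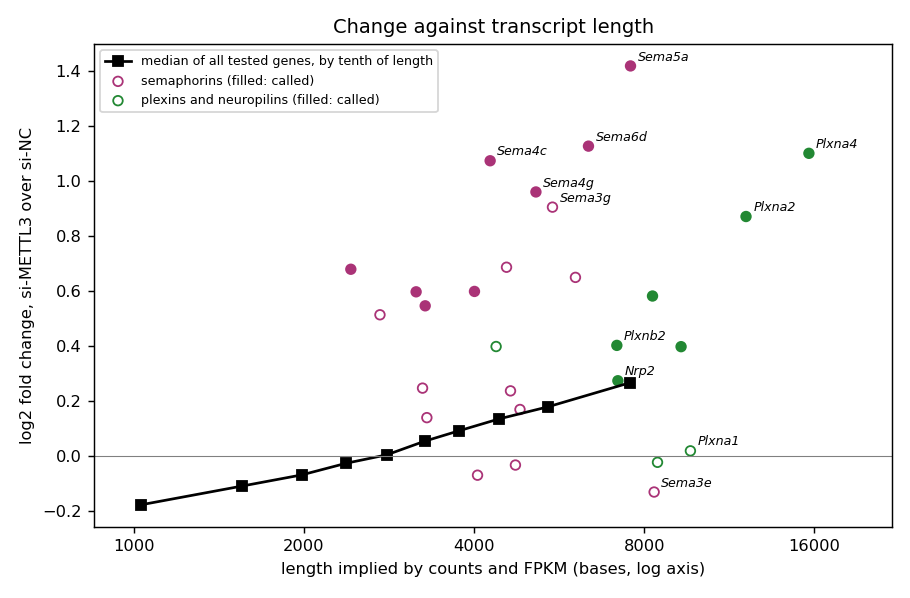
Log2 fold change against implied transcript length in bases (log axis) for all tested genes in 10 bins of length (squares and line, median of each bin) and for the members (points, filled where called). The median of all genes climbs from -0.18 to 0.27, and most members lie at the long end.

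The secreted class 3 ligands comprise 7 genes, all tested, of which Sema3b and Sema3f were called. Sema3f (chr9:107681500-107710475, minus strand, GRCm38) encodes a ligand of Nrp2. It measured 58.3, 46.3 and 57.4 CPM in si-NC against 81.4, 84.9 and 78.7 CPM in si-METTL3. Its log2 fold change was 0.60 (edgeR adjusted p = 0.0115, SE 0.10). The groups were apart, and without si-METTL3 2 the adjusted p by edgeR was 0.0605. Sema3b (chr9:107597674-107609229, minus strand) lies on the same chromosome and is likewise a neuropilin ligand. Its level was 14.7, 13.6 and 14.3 CPM in si-NC against 22.3, 20.3 and 19.7 CPM in si-METTL3. This gave a log2 fold change of 0.55 (edgeR adjusted p = 0.0112, SE 0.094). Both groups were narrow and apart; the edgeR adjusted p was 0.0519 without si-METTL3 2 and 0.0512 without si-NC 1.

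The other class 3 ligands were not called. Sema3a, the founding repellent of axons, measured 7.58, 15.2 and 6.65 CPM in si-NC against 8.01, 11.1 and 13.2 CPM in si-METTL3. Sema3c measured 33.5, 49.95 and 28.6 CPM against 44.5, 51.6 and 63.8 CPM, and Sema3d 12.2, 20.7 and 10.5 CPM against 15.8, 27.0 and 25.6 CPM. In these 3 genes, and in Sema3e and Nrp1, si-NC 2 was the highest si-NC library. Sema3e, a direct ligand of Plxnd1, measured 18.6, 25.6 and 16.2 CPM against 14.7, 20.6 and 19.96 CPM, with the groups overlapping and a log2 fold change of -0.13. Corrected for length, that of Sema3e was -0.46 (edgeR adjusted p = 0.0563). Without si-NC 2, edgeR gave Sema3c a log2 fold change of 0.78 (adjusted p = 0.0153) and Sema3d one of 0.99 (adjusted p = 0.0229). Sema3g, at 0.31, 0.27 and 1.20 CPM in si-NC against 1.13, 1.16 and 1.26 CPM in si-METTL3, was low in si-NC 1 and 2 alone, the libraries low in the lung list. Its log2 fold change was 0.90 (SE 0.53), and 1.77 without si-NC 3 (edgeR adjusted p = 0.0228). Whether the lung and blood markers have a part in this value was not tested.

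The class 4 ligands span the membrane, and 2 of 6 were called. Sema4c (chr1:36548639-36558349, minus strand), a ligand of Plxnb2, measured 4.02, 5.31 and 6.43 CPM in si-NC against 12.2, 10.5 and 10.7 CPM in si-METTL3. Its log2 fold change was 1.07 (edgeR adjusted p = 0.0110, SE 0.18). Sema4g (chr19:44989101-45003397, plus strand), another ligand of B plexins, measured 3.79, 4.61 and 4.79 CPM against 8.32, 9.14 and 8.40 CPM. It had a log2 fold change of 0.96 (edgeR adjusted p = 0.00615, SE 0.14). In both genes every si-METTL3 library was above every si-NC library, and both calls held whichever library was left out. Of the 4 not called, Sema4b measured 45.9, 42.7 and 49.1 CPM against 55.7, 52.3 and 54.2 CPM (log2 fold change 0.24) and Sema4a 14.6, 12.6 and 14.1 CPM against 16.7, 16.4 and 16.1 CPM (0.25), each without overlap. Sema4d, the ligand of Plxnb1, measured 9.41, 8.32 and 8.15 CPM against 9.36, 9.76 and 10.0 CPM. Sema4f measured 15.6, 12.01 and 14.3 CPM against 14.7, 11.9 and 14.4 CPM, with the groups overlapping.

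Sema5a (chr15:32244810-32696341, plus strand), a membrane ligand with thrombospondin repeats beside its sema domain, had the largest fold change of the tested members. Its level was 3.16, 3.42 and 3.49 CPM in si-NC against 8.45, 9.54 and 9.25 CPM in si-METTL3, which is 2.67-fold (log2 fold change 1.42, edgeR adjusted p = 0.000966, SE 0.12). The 3 si-NC libraries lay close together and far below the others. In FPKM it was 0.42, 0.49 and 0.39 against 1.16, 1.25 and 0.71. The length implied for this gene averaged 7730 bases over si-NC and 9373 over si-METTL3. That si-METTL3 mean was raised by si-METTL3 3, where 9.25 CPM went with 0.71 FPKM. Its paralog Sema5b had 0, 3 and 0 counts in si-NC against 2, 1 and 1 in si-METTL3, at or under the floor of 3 counts.

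Of the 4 class 6 ligands, which span the membrane and bind class A plexins, Sema6c and Sema6d were called. Sema6d (chr2:124089969-124667770, plus strand) measured 9.78, 12.4 and 8.88 CPM in si-NC against 21.1, 25.4 and 21.6 CPM in si-METTL3. It had a log2 fold change of 1.13 (edgeR adjusted p = 0.00497, SE 0.15), called whichever library was left out. Sema6c (chr3:95160457-95174024, plus strand) measured 2.59, 2.65 and 3.30 CPM against 4.82, 4.72 and 4.26 CPM, with a log2 fold change of 0.68 (edgeR adjusted p = 0.0287, SE 0.16). Its CPM groups were apart, but its FPKM values of 1.02, 1.39 and 1.37 against 2.16, 1.69 and 1.26 overlapped. The edgeR adjusted p of Sema6c was 0.109 without si-NC 1, and 0.0919, 0.105 and 0.0817 without si-METTL3 1, 2 and 3. Sema6b measured 3.11, 2.98 and 3.32 CPM against 3.57, 2.41 and 2.96 CPM, with the groups overlapping. Sema6a measured 0.54, 0.53 and 1.17 CPM against 1.31, 1.38 and 1.05 CPM, low in si-NC 1 and 2 like the lung list, whose part in this value was not tested.

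**Figure D4:**
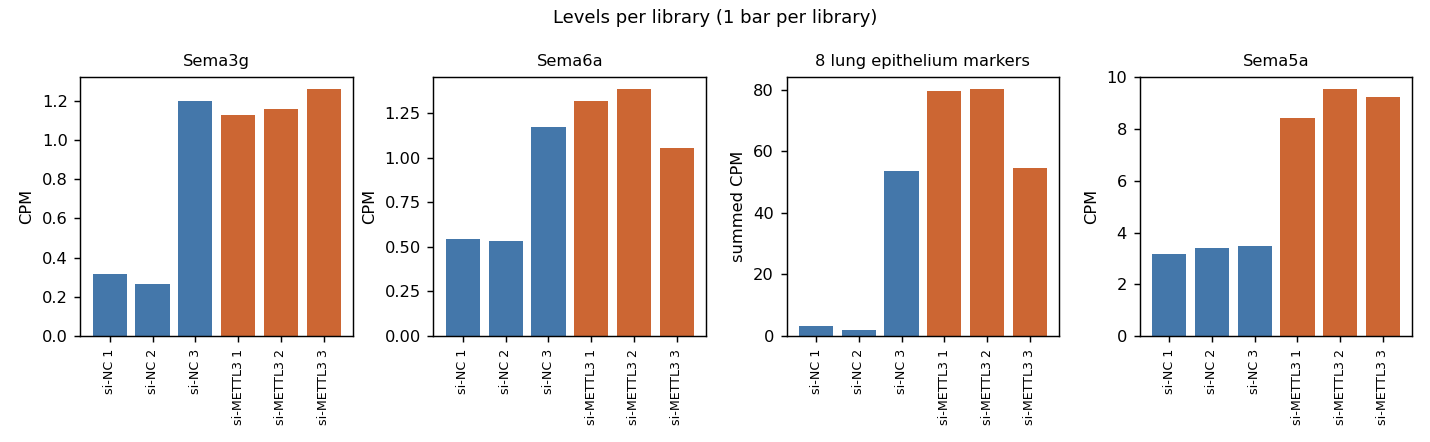
CPM in each of the 6 libraries (1 bar each, si-NC blue, si-METTL3 orange) of Sema3g, Sema6a, the sum of the 8 lung epithelial genes, and Sema5a. The first 3 panels are low in si-NC 1 and 2 and higher in si-NC 3, where Sema5a was 3.49 CPM, near its other si-NC values.

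Sema7a (chr9:57940112-57962865, plus strand), held to the membrane by a lipid anchor and a ligand of Plxnc1 and integrins, measured 2.42, 2.69 and 3.02 CPM in si-NC against 4.57, 3.61 and 4.22 CPM in si-METTL3. The groups were apart, with a log2 fold change of 0.60 (edgeR adjusted p = 0.0495, SE 0.17). This call was lost whichever library was left out, with an edgeR adjusted p of 0.0571 (without si-NC 2) to 0.162 (without si-NC 1), and likewise with the length correction (0.45, edgeR adjusted p = 0.118).

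Among the class A plexins, the signalling partners of neuropilins, Plxna2 and Plxna4 were called and Plxna1 and Plxna3 were not. Plxna2 (chr1:194618218-194816869, plus strand) measured 60.7, 58.2 and 53.6 CPM in si-NC against 103.19, 103.25 and 109.04 CPM in si-METTL3. Its log2 fold change was 0.87 (edgeR adjusted p = 0.000947, SE 0.075). Plxna4 (chr6:32144268-32588192, minus strand) measured 21.6, 21.2 and 25.3 CPM against 55.0, 44.3 and 46.9 CPM, with a log2 fold change of 1.10 (edgeR adjusted p = 0.00226, SE 0.12). Both were far apart between groups and called whichever library was left out, but with the length correction their log2 fold changes were 0.46 and 0.67, with edgeR adjusted p of 0.0591 and 0.0902. Plxna1 measured 492.32, 440.22 and 470.24 CPM against 490.64, 468.38 and 462.41 CPM, and Plxna3 15.4, 14.8 and 12.7 CPM against 13.7, 15.4 and 13.0 CPM. In both genes the groups overlapped.

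The class B plexins bind class 4 semaphorins. Plxnb2 (chr15:89155549-89180788, minus strand) measured 1187.36, 1015.45 and 1206.80 CPM in si-NC against 1530.44, 1506.65 and 1468.72 CPM in si-METTL3, for a log2 fold change of 0.40 (edgeR adjusted p = 0.0184, SE 0.082). Plxnb1 (chr9:109095389-109119917, plus strand) measured 42.8, 38.6 and 40.3 CPM against 54.7, 56.4 and 49.3 CPM, also 0.40 (edgeR adjusted p = 0.0226, SE 0.087). The groups were apart in each, with si-NC 2 the lowest library. With the length correction the log2 fold changes were 0.07 for Plxnb2 and 0.02 for Plxnb1, with edgeR adjusted p of 0.759 and 0.930. The edgeR call of Plxnb2 was lost without si-NC 1 (adjusted p = 0.0626) and without si-METTL3 1, 2 or 3 (0.0650, 0.0819 and 0.0721). That of Plxnb1 was lost without si-NC 1 or 3 (edgeR adjusted p = 0.0699 and 0.0714) and without si-METTL3 1, 2 or 3 (0.0868, 0.102 and 0.0545). Plxnb3 had 0, 0 and 152 counts in si-NC against 247, 0 and 0 in si-METTL3; a count of 0 allows up to 0.0855 and 0.0995 CPM in the first 2 of these and 0.134 and 0.122 CPM in the last 2, for counting error only.

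Plxnd1 (chr6:115954811-115995005, minus strand), a receptor known from vessel patterning, measured 60.4, 54.2 and 65.9 CPM in si-NC against 89.2, 93.0 and 88.0 CPM in si-METTL3. Its log2 fold change was 0.58 (edgeR adjusted p = 0.00765, SE 0.088), the groups were apart and the call held whichever library was left out. With the length correction it was 0.22 (edgeR adjusted p = 0.350). Plxnc1, the receptor of Sema7a, had 3 to 10 counts per library. The level of 8 endothelial markers added up to 13.3, 14.8 and 20.2 CPM in si-NC against 23.4, 22.1 and 19.8 CPM in si-METTL3. EdgeR tested 7 of them and called 0, with 2 at an unadjusted p under 0.05, and DESeq2 called 1. Whether these markers have a part in the values of Plxnd1 and Plxnc1 was not tested.

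Of the neuropilins, which bind both class 3 semaphorins and VEGF, Nrp2 (chr1:62703285-62818695, plus strand) measured 152.35, 145.60 and 160.53 CPM in si-NC against 190.68, 188.36 and 175.28 CPM in si-METTL3. The groups were apart by a log2 fold change of 0.27 (edgeR adjusted p = 0.0371, SE 0.071), the smallest of the 14 called, and by -0.048 with the length correction (edgeR adjusted p = 0.822). Its edgeR call held only without si-NC 2; the adjusted p was 0.139 without si-NC 1, 0.0698 without si-NC 3, and 0.133, 0.139 and 0.0881 without si-METTL3 1, 2 and 3. Nrp1 measured 30.4, 36.6 and 26.9 CPM against 37.4, 42.6 and 43.9 CPM, with a log2 fold change of 0.40 (edgeR adjusted p = 0.0769, SE 0.13). Without si-NC 2 that of Nrp1 was 0.52 (edgeR adjusted p = 0.0136).

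**Figure D5:**
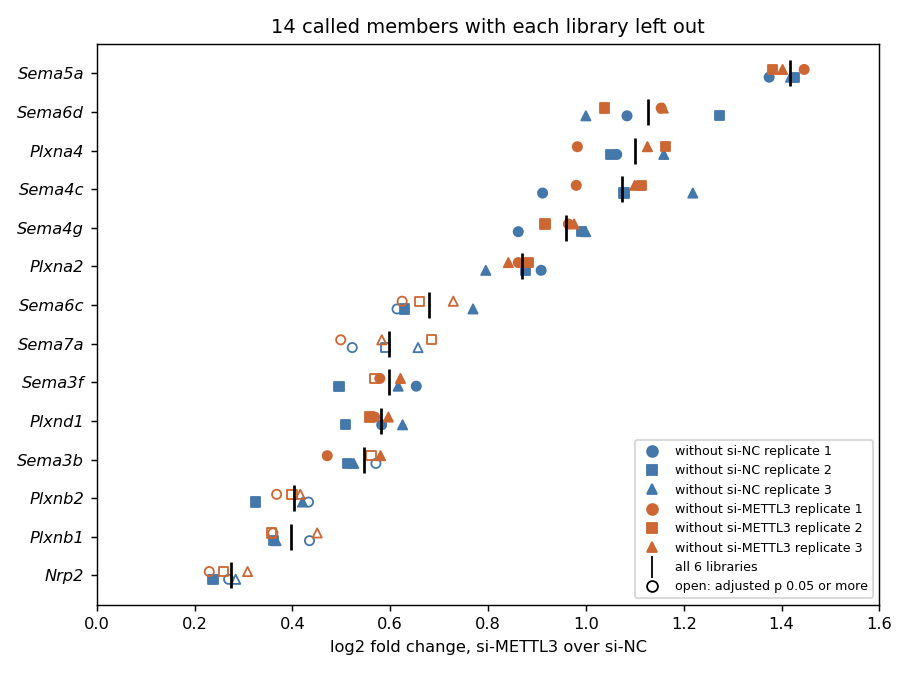
Log2 fold change of the called members in the edgeR fit of all 6 libraries and in each of the 6 fits that leave out 1 library; vertical ticks are the fit of all 6 and open symbols are fits with an adjusted p of 0.05 or more. All values in these fits are above 0, and 7 members were called in every fit.

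GGACT is the commonest core of the consensus that the METTL3 complex methylates (GGACU in RNA). It was counted on the sense strand of each gene's coding GENCODE M21 transcript of best APPRIS rank, a grading of main isoforms. Between equal ranks the longer coding sequence was taken. It occurred in the coding sequence of 30 of 31 members (96.8%, against 75.5% of 17501 genes with a count), the exception being Sema3d. The members' coding sequences had a median of 2769 bases, against 1332 bases in those genes. Per kilobase of transcript the median was 1.22 in the members and 1.05 in all genes, and it was 1.25 in the 14 called members and 1.22 in the 14 tested but not called. The last GGACT of the coding sequence is shown for 5 plexins, because it lies at the same distance from the coding end in a paralog that was called and in one that was not: 305 bases in Plxna2 and Plxna3, and 341 in Plxna4 and Plxna1. In Plxnd1 it lies at 326 bases. Capitals mark GGACT in these 30-base windows, written 5′ to 3′ as the transcript in DNA letters.
Plxna2 (called; chr1:194810197-194810226, plus strand): ccgactaggcaaGGACTcaccttccaacaa
Plxna3 (not called; chrX:74341671-74341700, plus strand): ccgcctgggcaaGGACTcaccttccaacaa
Plxnd1 (called; chr6:115956719-115957538, minus strand, across an intron): gcagctgggcaaGGACTcacccaccaacaa
Plxna4 (called; chr6:32157916-32157945, minus strand): ccagaccttcatGGACTcctgctccacttc
Plxna1 (not called; chr6:89320941-89320970, minus strand): gcagaccttcatGGACTcctgctctacatc
A match is a sequence and not a measured m6A site.

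RefSeq promoter windows (GRCm38.p6, 250 bases before to 50 after a start) were found for 26 of the 31 members, 37 windows in all. GGGCGG on either strand, the core of the GC box, was in 73.0% of them and in 35.7% of all 32851 windows; CCAAT on either strand was in 18.9% and 37.4%. The median GC content was 63.7% in the members' windows and 52.7% in all. Counted by gene, with a match in any of its windows, 11 of 11 called members and 9 of 12 tested but not called held GGGCGG. The shares above are by window, and no share of all genes was counted by gene. The windows of 3 members that were called whichever library was left out are shown, with GGGCGG and its complement CCGCCC in capitals.
Sema5a (chr15:32244563-32244862, plus strand): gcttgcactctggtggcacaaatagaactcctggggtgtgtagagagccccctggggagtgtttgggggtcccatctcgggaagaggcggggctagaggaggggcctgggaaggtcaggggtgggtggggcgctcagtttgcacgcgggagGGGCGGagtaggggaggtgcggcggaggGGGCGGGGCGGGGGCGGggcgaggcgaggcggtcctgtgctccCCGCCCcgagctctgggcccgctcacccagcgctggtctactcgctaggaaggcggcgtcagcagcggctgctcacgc
Sema4g (chr19:44989094-44989393, plus strand): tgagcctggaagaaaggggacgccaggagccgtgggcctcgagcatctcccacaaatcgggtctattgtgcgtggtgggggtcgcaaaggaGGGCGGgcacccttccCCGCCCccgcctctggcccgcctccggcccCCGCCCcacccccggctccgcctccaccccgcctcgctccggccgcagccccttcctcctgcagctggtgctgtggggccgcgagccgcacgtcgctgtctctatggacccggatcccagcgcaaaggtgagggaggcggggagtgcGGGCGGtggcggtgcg
Plxna2 (chr1:194619579-194619878, plus strand): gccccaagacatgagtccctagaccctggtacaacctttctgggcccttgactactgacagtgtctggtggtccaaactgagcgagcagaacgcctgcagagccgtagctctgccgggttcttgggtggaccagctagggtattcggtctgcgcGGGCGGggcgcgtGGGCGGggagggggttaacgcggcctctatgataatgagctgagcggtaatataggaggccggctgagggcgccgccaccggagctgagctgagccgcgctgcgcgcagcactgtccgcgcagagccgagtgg
The Sema5a window holds 5 such matches, that of Sema4g 4 and that of Plxna2 2.

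Of 67 listed partners of the family, edgeR tested 61 and called 9 higher and 5 lower, against 8.67% and 10.2% of all tested genes. The partners' median log2 fold change was 0.07. After correction for length edgeR called 2 partners higher and 6 lower, against 4.86% and 10.9% of all genes. Among 14 tested co-receptors and other binding partners, the VEGF receptors Flt1 (0.48, adjusted p = 0.00813) and Flt4 (0.35, adjusted p = 0.0343) rose by edgeR. The VEGF receptor Kdr, of the same list, was not called (0.067, edgeR adjusted p = 0.663), and its groups overlapped. Corrected for length, Flt1 was 0.17 (edgeR adjusted p = 0.303) and Flt4 0.0067 (0.981). Of 4 tested VEGF ligands of neuropilins, Vegfa fell (log2 fold change -0.24, edgeR adjusted p = 0.0431), and with the length correction it was -0.20 (edgeR adjusted p = 0.0977).

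The cytoplasmic effectors of plexins went both ways, with 7 of 37 tested called higher and 3 lower by edgeR and a median log2 fold change of 0.04. Over all tested genes the shares were 8.67% higher and 10.2% lower. The 5 largest were Rnd1, a GTPase that binds plexins, which fell (-0.85, edgeR adjusted p = 0.00176), Cdk5, a kinase of collapsin response mediators, which rose (0.58), Farp1, an exchange factor that binds class A plexins, which fell (-0.57), and 2 that rose by 0.53 each, the exchange factor Arhgef12, which binds B plexins, and the actin oxidase Mical3. After correction for length Arhgef12 was 0.15 (edgeR adjusted p = 0.452) and Mical3 0.27 (0.181), while Rnd1 (-0.87), Farp1 (-0.84) and Cdk5 (0.59) were still called. Of 6 proteases that cut semaphorins or their receptors, Pcsk5 fell (-0.69, edgeR adjusted p = 0.00512). Its value was -0.99 when corrected for length (edgeR adjusted p = 0.00326). In the fit without that correction, of these named partners Flt1, Farp1, Rnd1 and Pcsk5 were called whichever library was left out, Mical3 in 5 of the 6 such fits, Arhgef12 in 2, and Flt4, Vegfa and Cdk5 in 1 each. The level of 8 neural markers added up to 86.2, 98.0 and 87.8 CPM in si-NC against 105, 110 and 112 CPM in si-METTL3, with Syt1 and Tubb3 called higher by edgeR, and their part in the members' values was not tested.

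In a second table, of single transcripts, GENCODE M21 placed 33 in 17 members. Of these 20 had a count and 5 passed the filter, and edgeR called 0, against 0.733% of 5728 transcripts tested; 1 had an unadjusted p under 0.05. That one, ENSMUST00000125381 of Plxna2, had a log2 fold change of 0.87 (edgeR adjusted p = 0.175, SE 0.25). In the authors' deposited table, 13 members had an adjusted p under 0.05, all of them higher in si-METTL3. DESeq2 run here, which gave the same adjusted p to within 1%, called 1211 higher and 1438 lower of 17658 genes.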

How the data were processed

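Total RNA of 6 libraries, 3 per group, was measured. Per the file headers, the deposited mRNA table gives a count and an FPKM value per gene and library, and a lncRNA table gives the same per transcript. The authors also deposited group comparisons with a log2 fold change, p-values and adjusted p-values; the latter equal those of DESeq2 1.42.0 run here to within 1% for 13267 of 13267 genes. The submitters' processing notes name the tools RSEM, StringTie, Bowtie2 and fastp and the build mm9; versions, roles, strand and the handling of reads shared by paralogs are not given in the sources used here. All deposited counts were whole numbers. FPKM divides a count by length and library total, so the length the authors used for a gene can move it; CPM here does not.

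Counts were tested with edgeR 4.0.16 (R 4.3.3): TMM, filterByExpr, a quasi-likelihood fit of the 2 groups without covariates, and Benjamini-Hochberg adjustment over all tested genes with a threshold of 0.05. The SE of a log2 fold change is its size over the root of F. CPM is the count over the TMM effective library size, given per library or as mean ± SD. The length correction adds a spline of implied length (5 degrees of freedom) as an offset per library. For the length and GC correction, splines of the length and GC content of the longest GENCODE M21 transcript were used instead. Alternatives were DESeq2, total-count scaling, no filter, limma 3.58.1 on log2(FPKM + 1) and log2(FPKM + 0.1), a replicate block, length and GC corrections, and leaving out each library. Scripts were tested on simulated data. Floors are 3 counts. The mm9 genome was not used: positions, transcripts and GGACT come from GENCODE M21 (GRCm38) by Ensembl ID and promoters from RefSeq (GRCm38.p6) by symbol, with no coordinate converted.

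All members are named: each called member, and each averaging at least 1 FPKM, was to be given with values, and up to 5 called genes per partner list by size of change. The members, the partner and marker lists and this rule were chosen with earlier results of these data known. Figures were drawn with matplotlib 3.10.9.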

Additional observations from a re-analysis of the deposited data

How the results depend on the processing

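The members called higher numbered 14 in the reported fit, 7 with the length correction, 6 with the replicate block and length correction together, and 7 to 16 when 1 library was left out (7 without si-METTL3 2, 16 without si-NC 2). With block and length these were 5 semaphorins and 1 receptor, Plxna2 (0.47, edgeR adjusted p = 0.0413). Sema3f and Sema6c were not called in that fit (edgeR adjusted p = 0.0524 and 0.0750). Members called lower numbered 0, except 2 with the length and GC correction, Plxna1 and Sema3e. Over all genes, 2468 were called: 1273 with the replicate block, 1498 with block and length, and 665 to 4917 with 1 library left out. With the length correction 633 were higher and 1416 lower, against 1134 and 1334. Called partners numbered 14 (9 higher, 5 lower), but 6 with the block (3 and 3), 8 with the length correction (2 and 6), 5 with both (0 and 5), and 5 to 23 with 1 library left out. The causes were not tested. The correlations of same-numbered libraries' deviations from their group means were 0.07, 0.20 and -0.31. Deviations from a mean of 3 libraries depend on each other, so these values cannot decide whether the numbers pair the samples. With the replicate block 10 members were called. Of single-member log2 fold changes under the alternatives, 353 kept direction and call, 60 lost a call, 7 gained one and 24 changed sign, all 24 in members with an absolute value under 0.3. Nrp2 was -0.048 with length and -0.042 with block and length; Sema4d -0.048 and -0.041; Plxna1 -0.36, -0.35, and -0.37 with length and GC. Sema3a was -0.16 with length and GC, Plxna3 0.0032 with total-count scaling, and Sema4f 0.017 (limma, with and without the filter) and 0.023 (pseudocount 0.1). Leaving out 1 library gave -0.028 to 0.056 for Plxna1, -0.13 to 0.032 for Plxna3, -0.10 to 0.59 for Sema3a, -0.13 to 0.057 for Sema4f, -0.29 to 0.074 for Sema3e and -0.24 to 0.056 for Sema6b. Members under 1 CPM rest on few counts.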
